A study of Mus musculus with 860 samples.

Results

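Clusters 6 to 10 of the aorta-gonad-mesonephros (AGM) data were the 5 groups of cells, among the 11 Louvain clusters in the authors' annotation, in which genes of mesenchyme, lymphatic endothelium, primordial germ cells, megakaryocytes and macrophages were high. The members were the cells carrying cluster labels 6, 7, 8, 9 or 10, which were 14.7% of the 775 cells kept after quality control, out of 860 sequenced. Cluster 6 held 36 cells, cluster 7 held 30, cluster 8 held 25, cluster 9 held 12 and cluster 10 held 11, and the other 661 kept cells, those of clusters 0 to 5, were the comparison. Single cells were index-sorted from pooled AGM tissue of embryos of the Gfi1:tomato reporter line (strain given in the labels as CD1/Gf1+) at E10.5 or E11.5, and their RNA was sequenced by Smart-Seq2, which covers full-length transcripts and carries no molecular identifiers. All sorted groups carried the reporter, which stands for Gfi1 promoter activity, and no treatment was given. The 3 gates were GFI1+ hemogenic endothelium (HE; CD31+ GFI1+ cKIT-), GFI1+ intra-aortic hematopoietic cluster cells (IAHC; CD31+ GFI1+ cKIT+) and GFI1- IAHC (CD31+ cKIT+ GFI1-). The labels also give an age of 6-8 weeks, which is not an embryonic age, so only the embryonic stage was used.

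The AGM is the embryonic region around the dorsal aorta, next to the mesonephros and the genital ridges, where aortic endothelium gives rise to the first hematopoietic stem cells. CD31 (PECAM1) is carried by endothelium but also by primordial germ cells, megakaryocytes and macrophages, and cKIT, the receptor for stem cell factor, is carried by germ cells as well as by blood progenitors. Primordial germ cells reach the genital ridges through the hindgut and the mesentery at these stages, lymphatic endothelium buds from veins under the transcription factor PROX1, megakaryocytes make platelets, and macrophages of yolk sac origin settle in the tissues.

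The cells were sequenced in 4 batches, which the labels name GL53, GL58, GL69 and GL78, and no animal is named for any cell. Cells of a sorted group are therefore not replicates, each group counts as 1 sample, and no difference below has a test or a p-value. The gene counts also made the clusters, so gene levels are a description of them; the index-sort signals, the gates, the stages and the batches did not enter the clustering. Levels are CPM, a gene's share of all counts on the usual scale for sequencing depth, from counts summed over the cells of a cluster, and a gene is called higher or lower at a 4-fold or greater difference from clusters 0 to 5 after adding 1 CPM, with at least 10 CPM in the higher of the groups compared. A gene under 10 CPM in clusters 0 to 5 is measured only through the cluster that holds it. Counts of higher members among such genes describe the cluster and are no support for its name. Intervals are exact 95% intervals and cover counting error only.

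Some libraries shared a cell. Among 369370 pairs of sequenced libraries, those later discarded included, the median correlation of log2(CPM + 1) was 0.575. Of these, 15 pairs, all of kept libraries, reached 0.979 to 0.990 while no other pair passed 0.855. Each of the 15 pairs lay in 1 cluster, and 5 of them lay in clusters 6 (2 pairs) and 7 (3 pairs), so cluster 6 stood for at most 34 distinct cells and cluster 7 for at most 27. Of the 15 pairs, 7 sat in the same well, and 8 linked a GL53 plate with a GL78 plate whose wells matched when rows and columns were reversed. In addition, 8 libraries of that GL53 plate, labelled E11.5 GFI1- IAHC, carried the index-sort record of a GL78 library labelled E11.5 GFI1+ HE, and 1 of them was in cluster 6 and 1 in cluster 7. Some shares of cells and some index-sort signals that rest on those libraries are given with and without them. Gene levels and gene calls in the main results include all of them. Total counts of the kept cells ran from 134284 to 2296820, and those of the members from 134284 to 1263750. Median total counts were 549488 in cluster 6, 640199 in cluster 7, 703919 in cluster 8, 914984 in cluster 9, 401899 in cluster 10 and 741837 in clusters 0 to 5.

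The 5 clusters were spread unevenly over the gates. They were 17 of the kept E10.5 HE cells (15.6%, 9.36 to 23.8), 7 of the E10.5 GFI1+ IAHC cells (6.03%, 2.46 to 12.04) and 0 of 3 E10.5 GFI1- IAHC cells. At E11.5 they were 1 of the HE cells (0.581%, 0.0147 to 3.20), 31 of 240 GFI1+ IAHC cells (12.9%, 8.95 to 17.8) and 58 of the GFI1- IAHC cells (42.96%, 34.5 to 51.8). With each repeated cell counted once, the last share was 42.4% (53 cells), and that of all 760 distinct kept cells was 14.3%.

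The clusters differed in their gates, although E11.5 GFI1- IAHC held the most cells of clusters 6 and 10. Cluster 6 (mesenchymal genes) lay in E11.5 GFI1- IAHC for 32 of 36 cells, and cluster 7 (lymphatic genes) in E11.5 GFI1- IAHC for 16 cells and in E11.5 GFI1+ IAHC for 13 of its 30. With each repeated cell counted once, E11.5 GFI1- IAHC held 30 of the 34 cells of cluster 6. Cluster 7 then had 13 cells in E11.5 GFI1- IAHC and 13 in E11.5 GFI1+ IAHC. Cluster 8 (germ cell genes) held 4 E10.5 HE cells, 5 E10.5 GFI1+ IAHC cells, 15 E11.5 GFI1+ IAHC cells and 1 E11.5 GFI1- IAHC cell. Cluster 9 (megakaryocyte genes) was in the HE gate for all 12 cells, 11 at E10.5, where it was 10.1% of the gate (5.15 to 17.3), and 1 at E11.5. Cluster 10 (macrophage genes) held 9 E11.5 GFI1- IAHC cells and 2 E11.5 GFI1+ IAHC cells. The batch moved with these shares: within E11.5 GFI1- IAHC the 5 clusters were 47 of 91 cells in GL53 (51.6%, 40.9 to 62.3) and 11 of 44 in GL78 (25%, 13.2 to 40.3). Cluster 6 accounted for 31 of the GL53 cells and 1 of the GL78 cells, and cluster 10 for 3 and 6. Of the 11 GL78 members 4, the 1 of cluster 6 and 3 of cluster 7, were libraries of cells also sequenced in GL53, and without the libraries of cells found in both batches the shares were 43 of 83 (51.8%, 40.6 to 62.9) and 7 of 36 (19.4%, 8.19 to 36.02). Within E11.5 GFI1+ IAHC the 5 clusters were 8.26% of the GL53 cells (4.03 to 14.7), 8 of 30 in GL58 (26.7%, 12.3 to 45.9) and 13 of 89 in GL78 (14.6%, 8.01 to 23.7), and cluster 8 alone was 3.31%, 20% and 5.62%.

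**Figure D1:**
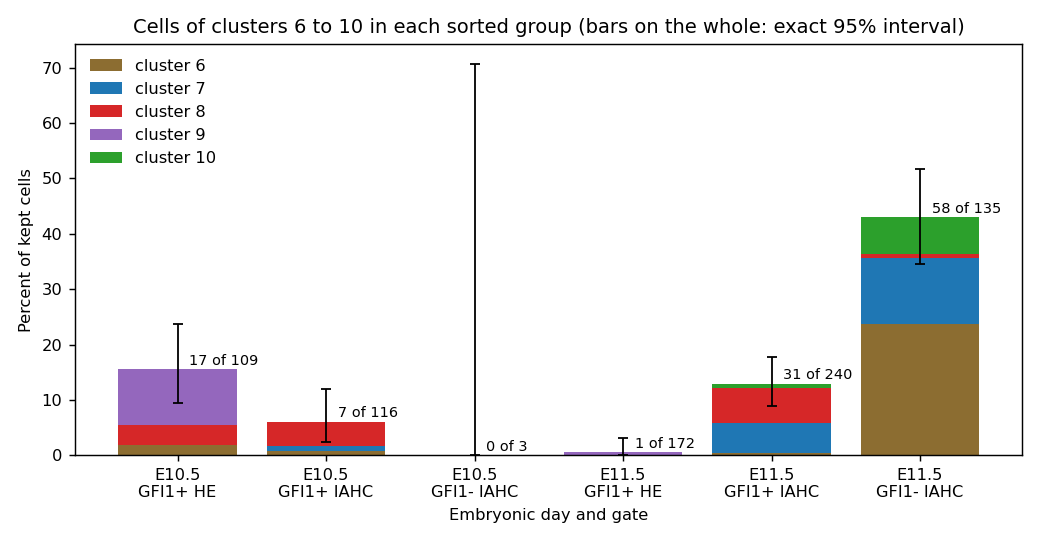
Share of the kept cells of each sorted group (percent, with exact 95% binomial intervals for clusters 6 to 10 together) that fell in clusters 6, 7, 8, 9 and 10. E11.5 GFI1- IAHC is the tallest bar at 42.96%, with cluster 6 as its widest band, whereas the cells of cluster 9 lie in the HE gates.

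The marker named for each cluster was high in nearly all of its cells. Col3a1, a fibrillar collagen (chr1:45311538-45349706, plus strand, mm10), reached 100 CPM in 34 of 36 cells of cluster 6 and in 31 of the 661 cells of clusters 0 to 5. Prox1, the transcription factor that specifies lymphatic endothelium (chr1:190118035-190170714, minus strand), did so in 30 of 30 cells of cluster 7 and in 43 of 661. Dppa3 (Stella), a germ cell and early embryo protein (chr6:122626410-122630272, plus strand), did so in 24 of 25 cells of cluster 8 and in none of the 661. Pf4, the chemokine platelet factor 4 (chr5:90772435-90773383, plus strand), reached that level in 12 of 12 cells of cluster 9 and 14 of 661. C1qb, a chain of complement C1q made by macrophages (chr4:136880129-136886187, minus strand), reached it in 11 of 11 cells of cluster 10 and 7 of 661. Of all counts of each marker over the kept cells, 82.1% of Col3a1, 56.1% of Prox1, 98.2% of Dppa3, 90.6% of Pf4 and 86.6% of C1qb lay in its cluster.

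**Figure D2:**
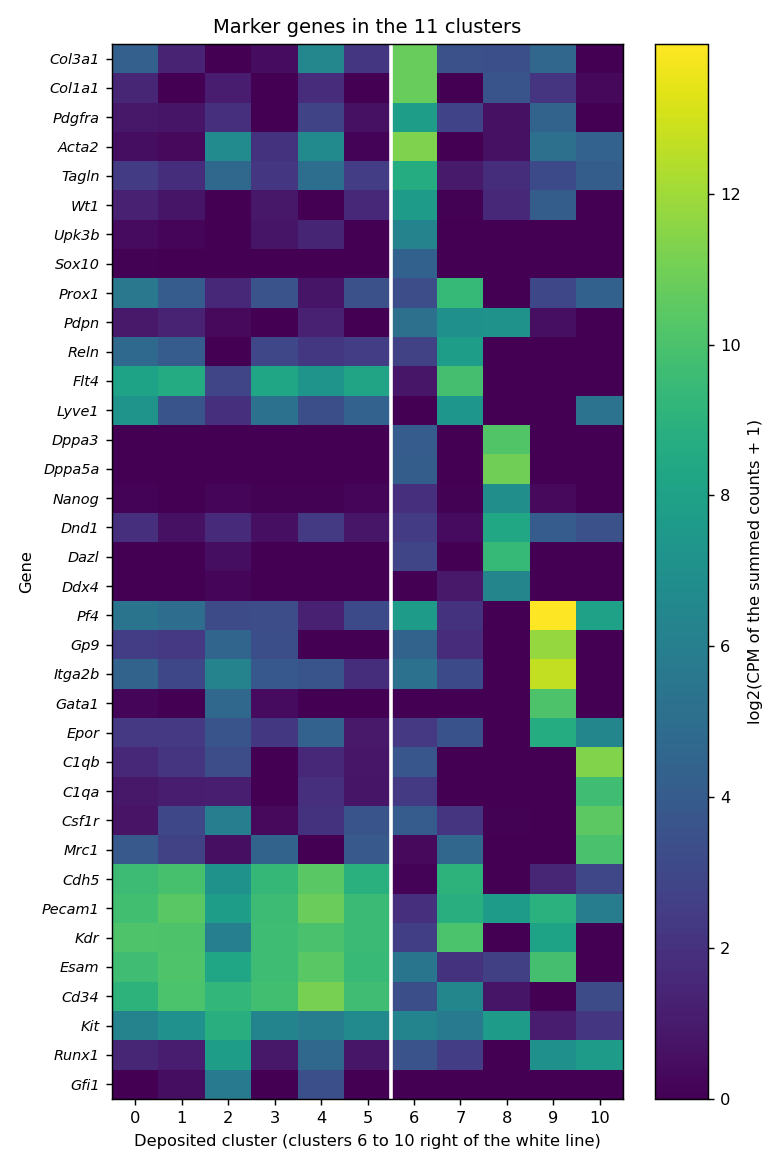
Level of marker genes (rows) in each of the 11 clusters (columns) as log2(CPM + 1) of the summed counts, from dark (0) to yellow, with clusters 6 to 10 right of the white line. Each block of markers is bright in 1 of these clusters, the endothelial genes Cdh5 to Cd34 are bright in clusters 0 to 5 and in part in cluster 7, and Gfi1 is dark in clusters 6 to 10.

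The endogenous Gfi1 transcript (chr5:107716657-107726036, minus strand), whose promoter drives the reporter used for sorting, was absent from these cells as far as the depth could show. Gfi1 had 0 counts in every member, which allows a share of cells with a count of up to 2.63%, although cluster 9 and all but 1 cell of cluster 8 came from GFI1+ gates. In clusters 0 to 5 it had counts in 56 of 661 cells (8.47%), among them 46 cells of cluster 2 and 8 of the 76 cells of cluster 4. Clusters 0, 3 and 5 had no Gfi1 count either and cluster 1 had counts in 2 cells, so the absence was not particular to clusters 6 to 10.

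Promoter windows are shown for genes of clusters 9 and 8 whose members moved together, as examples of how the letters around the start sites differ between these genes. Each window spans 250 bases before to 50 after the transcription start in RefSeq (GRCm38.p6), 5′ to 3′ on the strand of the gene. In the platelet genes Pf4 (chr5:90772185-90772484, plus strand), Gp5 (chr16:30310732-30311031, minus strand), a subunit of the von Willebrand factor receptor, and Clec1b (chr6:129397047-129397346, plus strand), the podoplanin receptor CLEC-2, capitals mark AGATAA on either strand (TTATCT), the letters bound by GATA factors. They mark 1 match in Pf4, 2 in Gp5 and 1 in Clec1b. These windows are among the 5 of 16 of the megakaryocyte list that hold a match, and none without a match is shown.
Pf4: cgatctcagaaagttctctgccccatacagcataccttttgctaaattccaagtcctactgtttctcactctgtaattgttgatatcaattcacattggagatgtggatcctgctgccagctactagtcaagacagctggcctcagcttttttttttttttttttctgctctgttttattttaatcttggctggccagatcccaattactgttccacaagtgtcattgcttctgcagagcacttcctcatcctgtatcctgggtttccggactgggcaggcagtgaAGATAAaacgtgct
Gp5: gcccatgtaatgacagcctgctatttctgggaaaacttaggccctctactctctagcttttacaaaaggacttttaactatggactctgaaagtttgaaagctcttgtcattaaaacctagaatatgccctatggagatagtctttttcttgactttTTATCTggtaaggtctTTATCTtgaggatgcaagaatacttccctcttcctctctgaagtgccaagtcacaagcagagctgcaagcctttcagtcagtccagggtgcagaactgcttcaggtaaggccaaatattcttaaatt
Clec1b: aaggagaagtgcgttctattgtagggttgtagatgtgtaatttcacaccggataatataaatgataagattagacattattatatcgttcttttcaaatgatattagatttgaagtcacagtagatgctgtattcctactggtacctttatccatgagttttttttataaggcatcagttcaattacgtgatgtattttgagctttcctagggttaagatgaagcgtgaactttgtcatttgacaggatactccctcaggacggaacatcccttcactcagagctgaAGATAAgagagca
In the germ cell genes Dazl (chr17:50293571-50293870, minus strand), Ddx4 (chr13:112652261-112652560, minus strand) and Mael (chr1:166238695-166238994, minus strand), which act in RNA control and transposon silencing of the germ line and were higher at E11.5 within cluster 8, capitals mark CG pairs, the sites of DNA methylation. They mark 28 in Dazl, 38 in Ddx4 and 24 in Mael.
Dazl: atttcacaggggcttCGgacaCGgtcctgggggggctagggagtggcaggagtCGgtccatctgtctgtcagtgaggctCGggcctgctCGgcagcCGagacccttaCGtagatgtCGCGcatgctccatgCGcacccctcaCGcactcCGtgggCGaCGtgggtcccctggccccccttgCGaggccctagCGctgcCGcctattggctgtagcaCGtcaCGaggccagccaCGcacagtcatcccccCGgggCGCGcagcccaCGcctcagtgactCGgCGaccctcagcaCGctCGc
Ddx4: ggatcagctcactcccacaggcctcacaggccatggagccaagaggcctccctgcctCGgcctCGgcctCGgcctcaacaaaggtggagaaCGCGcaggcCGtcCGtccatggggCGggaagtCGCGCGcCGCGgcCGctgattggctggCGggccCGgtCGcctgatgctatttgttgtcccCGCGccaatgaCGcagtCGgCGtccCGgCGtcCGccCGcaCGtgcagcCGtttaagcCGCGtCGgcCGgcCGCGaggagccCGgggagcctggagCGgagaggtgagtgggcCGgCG
Mael: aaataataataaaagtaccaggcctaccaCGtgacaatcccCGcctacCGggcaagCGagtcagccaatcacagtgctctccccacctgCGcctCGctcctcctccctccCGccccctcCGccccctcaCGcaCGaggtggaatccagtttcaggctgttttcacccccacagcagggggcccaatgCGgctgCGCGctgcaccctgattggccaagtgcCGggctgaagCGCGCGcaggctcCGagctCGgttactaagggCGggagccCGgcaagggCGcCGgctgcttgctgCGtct
AGATAA was present in 3672 of all 32851 promoter windows (11.2%). It was in 5 of the 16 windows found for the megakaryocyte list, which stand for 16 of its 22 genes, and in 1 of the 14 for the mesenchyme list. None held it of the 14 for the late germ cell list, the 10 for the early germ cell list, the 15 for the macrophage list or the 14 for the lymphatic list. The median number of CG pairs was 24 over the 14 late germ cell windows (10 to 38), 8.5 over the early germ cell windows (3 to 27), 4 over the megakaryocyte windows (0 to 8), 5 over the macrophage windows, 12 over the lymphatic windows and 7 over all windows (0 to 67). These are descriptions of the letters and not of binding or methylation, neither of which was measured.

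Cells of cluster 6 were mesenchyme-like and low in pan-endothelial transcripts. The fibrillar collagen genes Col1a1 (1687 CPM against 0.940 in clusters 0 to 5, 870-fold) and Col1a2 (1179 against 5.37 CPM, 185.2-fold) and the proteoglycan gene Gpc3 (1945 against 12.99 CPM, 139.1-fold) were among the genes most above clusters 0 to 5. Endothelial junction genes were all but missing, with Cdh5 (VE-cadherin) at 0.0908 against 730 CPM and Cldn5 (claudin 5) at 0.136 against 1281 CPM. The summed pan-endothelial list still reached 100 CPM in 13 of 36 cells and 1000 CPM in 1, against a sum of 11510 CPM in clusters 0 to 5, and only 2 of 7 venous and 7 of 13 arterial genes were lower. Of 10949 genes measured at 10 CPM, 955 were higher (8.72%) and 600 lower (5.48%). Of the mesenchyme list, 15 of 18 genes were higher and none lower, with a median log2 ratio of 6.14 against 0.19 over all genes; Col5a2, Fbn1 and Fstl1 did not reach 4-fold.

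Single cells of cluster 6 differed widely in these genes. Col3a1 was 0 CPM in its lowest cell, 1476 in the median cell and 6498 in the highest, against a median of 0 in clusters 0 to 5. Gpc3 had counts in all 36 cells (523 to 4078 CPM), and Pdgfra, the PDGF receptor of mesenchymal progenitors, had counts in 28 and reached 763 CPM. The summed CPM of the mesenchyme list ran from 607 to 24284 over the cells, with a median of 6871, and it overlapped with the 739 other kept cells, whose median was 458 and whose highest was 11005 CPM. Other genes of the set most above clusters 0 to 5 were Crabp1 (570 against 0.455 CPM), a retinoic acid binding protein, and Vcan (386 against 0.924 CPM), the matrix proteoglycan versican.

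Cluster 6 held more than 1 kind of program. Of the summed mesenchyme, mural, mesonephric and coelomic, and neural lists, the first was highest within 26 cells, the second in 6, the third in 2 and the last in 2. The 6 mural cells were all from GL53. Acta2, the smooth muscle actin, had a summed level of 2492 CPM (28.4 in clusters 0 to 5), a median cell at 0 and a highest cell at 25096 CPM, and it reached 100 CPM in 10 cells. Actg2 (492 against 0.00985 CPM) and Myh11 (227.1 against 0.402 CPM), the contractile proteins of visceral and vascular smooth muscle, reached 100 CPM in 6 cells each, all of them among those 10. Of the mural list 12 of 13 genes were higher and 1, Abcc9 (1.95 CPM), was lower.

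A second set of cells carried genes of the mesonephric and coelomic list. Of its 15 genes 12 were measured and all 12 were higher, beside 8.72% of all genes. The list summed to 42.5 CPM in clusters 0 to 5, so most members were measured only through cluster 6. That count is therefore a description and no support. Wt1, a transcription factor of coelomic epithelium and nephrogenic mesenchyme, stood at 208.5 against 0.865 CPM (112.4-fold) and reached 100 CPM in 14 cells, of which 11 also held Pdgfra at 100 CPM and 1 held Acta2. Upk3b, a mesothelial uroplakin, had counts in 7 cells, Lhx9, a gonadal ridge factor, in 6, and Nr5a1 (steroidogenic factor 1) in 7. The nephric duct genes Pax2, Pax8 and Lhx1 each stayed below 1 CPM. Both cells in which this list was highest were libraries of 1 repeated cell, with list sums of 6112 and 6546 CPM. That cell had 0 CPM of Col3a1 and of Acta2, and it also carried early germ cell genes (1444.4 and 1469.3 CPM summed), as did 1 further cell of cluster 6 (2605 CPM). The lowest cell of cluster 8 had 2704 CPM of that list, so the third library sat just below it and the other two well below.

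Neural crest genes were found in few cells of cluster 6: Sox10, the neural crest and glial factor, had counts in 2 cells, and the summed neural list reached 5655 CPM in the highest cell. Of its 6 measured genes 5 were higher, all of them from few cells. In 1 E10.5 HE cell of cluster 6 the megakaryocyte list (7318 CPM, Pf4 at 3638) passed the mesenchyme list (1361 CPM), and its CD41 signal was 12105.

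**Figure D3:**
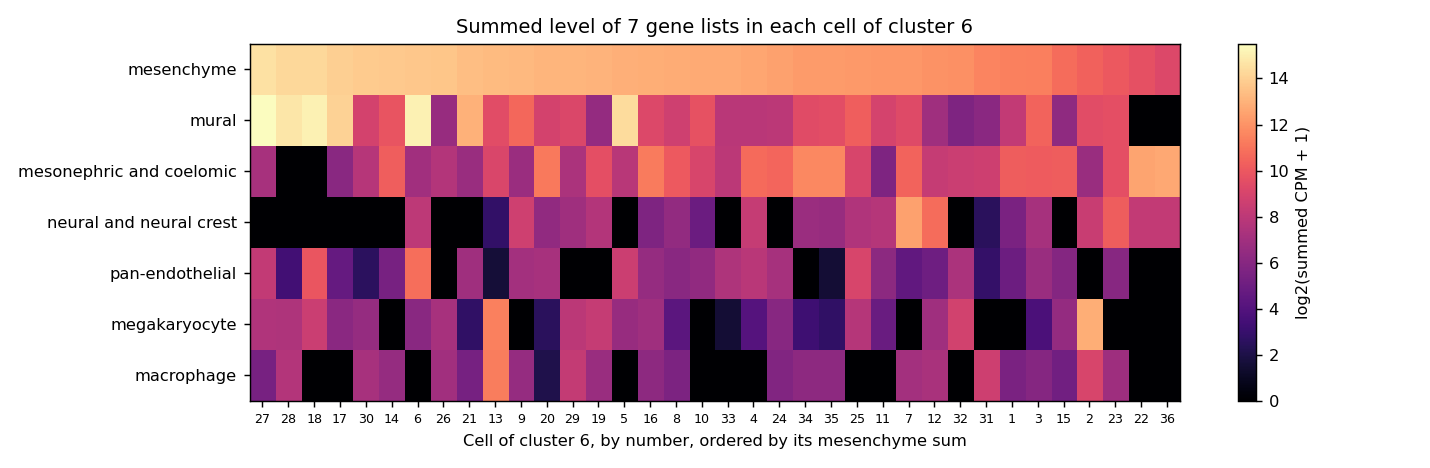
Summed level of 7 gene lists (rows) in each of the 36 libraries of cluster 6 (columns, ordered by the mesenchyme list), as log2(summed CPM + 1), from black (0) to pale. The mural list passes 10000 CPM in 6 columns, and columns 22 and 36, libraries of the same cell, are pale in the mesonephric and coelomic row.

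Some ligands that act on hematopoietic and endothelial cells were higher in cluster 6 and others lower. Of 13 measured genes of the niche ligand list 3 were higher, beside 8.72% of all genes, and 2 lower, with a median log2 ratio of 0.66. Cxcl12, the chemokine of stem cell niches, stood at 759 against 12.8 CPM (55.2-fold, counts in 33 of 36 cells). Dlk1, a non-canonical Notch ligand, was at 229.1 against 3.46 CPM (51.5-fold, counts in 34 cells), and Angpt2, the context-dependent TEK ligand, at 122.2 against 9.89 CPM. The lower ones were Pdgfb (5.13 against 63.7 CPM), which recruits mural cells, and Vegfc (9.72 against 64.7 CPM), the lymphatic growth factor, and Kitl, encoding stem cell factor, did not reach 4-fold (19.9 against 55.5 CPM). Of the Notch list 3 of 14 genes were higher, the receptors Notch2 (71.4 against 16.4 CPM, 4.15-fold) and Notch3 (80.6 against 14.6 CPM) and the target Heyl (74.996 against 1.51 CPM), and 6 were lower, among them Dll4 (1.82 against 126.5 CPM) and Notch1 (25.4 against 166.6 CPM). Jag1 (83.6 against 64.7 CPM) did not reach 4-fold. Of the pan-endothelial list 17 of 17 genes were lower and of the hematopoietic progenitor list 11 of 15.

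CD31, which defines all 3 gates, was low in the index record of cluster 6. CD31 signal had a lowest value of 1299, a median of 1559 and a highest of 47957 over 35 cells, against a median of 35229 in 615 cells of clusters 0 to 5, and 32 of 35 cells lay at or below the 10th percentile of cells of clusters 0 to 5 of the same gate, stage and batch. The 47957 belonged to the library whose record is also that of another cell; its repeat had a CD31 signal of 3010, and without it the highest was 8006. GFI1 signal had a median of 51.01 and was at or below the 10th percentile in 26 cells. The cKIT signal (median 273.6, median percentile 51.2) was not low within the gate. NOTCH2 signal (median 167.6) was at or above the 90th percentile in 27 of 35 cells. DLL4 signal (median percentile 87.8) was so in 14 cells, with Dll4 at 1.82 against 126.5 CPM. NOTCH1 signal (median percentile 85.4) was at or above the 90th percentile in 14 cells and at or below the 10th in 6, with Notch1 at 25.4 against 166.6 CPM. For DLL4 and NOTCH1 the signal thus did not follow the lower transcript. Of the 36 cells 32 were from GL53, 28 of them on 1 plate, so most of these percentiles come from that batch.

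Cells of cluster 7 were lymphatic-like endothelium. Prox1 stood at 661 CPM against 19.4 in clusters 0 to 5 (32.5-fold), with 112.8 CPM in the lowest cell, 671 in the median cell and 1974 in the highest. Pdpn, the lymphatic membrane protein podoplanin, was at 128.7 against 0.782 CPM (72.8-fold, counts in 25 of 30 cells), and Reln, a secreted lymphatic glycoprotein, at 226.6 against 12.3 CPM (17.1-fold). Unlike the other clusters it had few genes higher than in clusters 0 to 5, 1.09% of 9855. The share of lower genes, 465 (4.72%), was close to the 5.48% of cluster 6. Of the 17 pan-endothelial genes 15 were within 4-fold of clusters 0 to 5. The median log2 ratio of that list was −0.83 and its sum 7828 against 11510 CPM, and Esam and Flt1 were lower. Among the others were Cdh5 at 528 against 730 CPM, Kdr (VEGF receptor 2) at 1030 against 852 CPM and Cldn5 at 1841 against 1281 CPM.

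Of the lymphatic list 5 of 14 measured genes were higher, 1 was lower and 8 did not reach 4-fold, with a median log2 ratio of 1.66 against 0.02 over all genes. Beside Prox1, Pdpn and Reln the higher ones were Nrp2, the VEGF-C co-receptor (1372 against 237.2 CPM, 5.77-fold, 477 CPM or more in every cell), and Tbx1, a transcription factor of lymphatic and pharyngeal development (234.7 against 34.3 CPM, 6.68-fold). Flt4 (VEGF receptor 3) had counts in all 30 cells and stood at 946 against 252.6 CPM (3.73-fold), just under the limit. Markers of later lymphatic and of sinusoidal vessels were uneven. The scavenger receptor Stab2 stood at 21.5 against 126.1 CPM, whereas its relative Stab1 stood at 1001 against 347.4 CPM (2.87-fold) with counts in all 30 cells. Ccl21a had 1 count in 1 cell, and Lyve1 (160 against 51.01 CPM, under 4-fold) had counts in 14 of 30 cells. The sum of this list ran from 2901 to 10054 CPM over the cells of cluster 7 (median 6078), and it overlapped with the 745 other kept cells, whose median was 1713 and whose highest was 9118 CPM.

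Some arterial genes, and most measured genes of the hematopoietic progenitor list, were lower in cluster 7. The lowest genes by the naming rule were Esam, an endothelial adhesion molecule (3.09 against 855 CPM), Nrp1, the semaphorin and VEGF-A co-receptor (3.75 against 531 CPM), and Nos3, endothelial nitric oxide synthase (0.913 against 75.1 CPM). Flt1, the VEGF-A decoy receptor, was at 21.6 against 504 CPM, and the gap junction gene Gja5 at 1.67 against 181.7 CPM. Of the arterial list 6 of 13 genes were lower and 1, the netrin receptor Unc5b (509 against 79.9 CPM), was higher. Of the venous list Aplnr, the apelin receptor (37.1 against 850 CPM), and Emcn, the venous sialomucin endomucin (245.5 against 1216 CPM), were lower, while Ephb4 (242.1 against 252.5 CPM) and Nr2f2 (116.1 against 63.7 CPM), the venous identity receptor and factor, did not reach 4-fold. The hematopoietic progenitor list had 10 of 15 genes lower, among them Runx1 (4.77 against 38.6 CPM), and Ptprc (CD45) had no count.

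Of the Notch list 4 of 13 genes were lower and none higher. Jag1 stood at 5.07 against 64.7 CPM and Notch4 at 11.8 against 92.1 CPM, whereas Notch1 (140 against 166.6 CPM) and Dll4 (56.5 against 126.5 CPM) did not reach 4-fold. Angpt2 was at 108.2 against 9.89 CPM, and its receptor gene Tek, at 96.7 against 382.05 CPM, did not reach 4-fold.

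Several lymphatic genes of cluster 7 stood at like levels in both E11.5 gates, and others did not. Nrp2 was at 1372 CPM in GFI1+ IAHC and 1280 in GFI1- IAHC, Flt4 at 896 and 983, and Tbx1 at 231.4 and 234.8 CPM. In the 13 E11.5 GFI1+ IAHC cells Prox1 stood at 554 CPM, Pdpn at 154.4, Emcn at 361.1 and Lyve1 at 130, and in the 16 E11.5 GFI1- IAHC cells at 778, 100.9, 124.2 and 199.4 CPM. By batch Prox1 was at 659 CPM in 17 GL53 cells and 681 in the GL78 cells, while Lyve1 was at 34.3 and 334.3 CPM, so the batch moved with Lyve1 and its part was not tested; 3 of these cells had a library in both batches. CD31 signal of cluster 7 spanned 1579 to 76830 with a median of 19752 over 25 cells (median percentile 33.3), far above the median of cluster 6. The NOTCH2 median (51.04, with values below 0 in 8 of 25 cells) lay at the 90.9th percentile. The CD41 signal was 581 in the median cell, with 1 cell at 26113. Without the library with a shared record the CD31 median was 20956 and that of CD41 was 589.

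Cells of cluster 8 were primordial germ cell-like. Dppa3 stood at 1159 CPM (1143 to 1175) and had no count in any of the 661 cells of clusters 0 to 5. In its 25 cells it was 0 in the lowest, 1197 in the median and 2130 CPM in the highest, and 24 had counts. Dppa5a, an RNA-binding protein of pluripotent and germ cells, had counts in all 25 cells (267.8 to 3616 CPM, 2014 summed, against 0.00591). The pluripotency factors Pou5f1 (OCT4; 146.8 against 0.0453 CPM), Nanog (118.4 against 0.0985 CPM) and Sox2 (127.1 against 0.0315 CPM) had counts in 24, 23 and 24 cells.

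Of 10445 genes measured 752 were higher in cluster 8 (7.2%) and 1680 lower (16.1%). Of the early germ cell list 15 of 16 genes were higher, with a median log2 ratio of 7.02 against −0.02 over all genes. They included Tfap2c (199.1 CPM against 0), a factor of germ cell specification, Nanos3 (78.6 against 0.477 CPM) and Dnd1 (328.1 against 1.85 CPM), RNA-binding proteins needed for germ cell survival, and Sall4 (396 against 8.95 CPM). Prdm1, the factor that opens germ cell specification, stood at 61.8 against 29.1 CPM and did not reach 4-fold; it reached 100 CPM in 63 of the 661 other cells. The summed list was 2704 to 8910 CPM over the 25 cells and no other kept cell passed 2605 CPM, so the cluster did not overlap with the rest. The X-linked homeobox genes Rhox9 (899 CPM against 0), Rhox6 (614 CPM against 0) and Rhox5 (1145 against 0.902 CPM) were all in this set, as were Utf1 (699 against 0.0315 CPM) and Fkbp6 (347.2 CPM against 0).

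The E10.5 and E11.5 cells of cluster 8 differed in genes of the later germ cell program. Of 11 measured genes of the late list 8 were at least 4-fold higher at E11.5 and none lower (median log2 difference 2.79), and of the 16 of the early list none was past 4-fold (median −0.14), beside 7.89% of 9315 genes higher, 3.53% lower and a median of 0.31 over all genes. Dazl, an RNA-binding protein that licenses germ cells for sexual differentiation, stood at 20.5 CPM in the 9 E10.5 cells, with a lowest and median cell of 0 and a highest of 92.1, and at 1049 CPM in the 16 E11.5 cells, with 218.1 in the lowest, 982 in the median and 1966 in the highest. The stages did not overlap in it. Ddx4, the germ cell helicase VASA, stood at 8.33 and 124.1 CPM, Mael at 3.55 and 86.6 CPM, the meiotic axis gene Hormad1 at 4.01 and 33.1 CPM, and Tdrkh, a tudor protein of the piRNA pathway, at 11.3 and 83.5 CPM, and single cells of the stages overlapped in these. Tex101, a germ cell surface protein, stood at 1.54 and 104.2 CPM, with counts in 5 of the 16 E11.5 cells. Of the late list Rhox9 did not share that direction (1060 and 800 CPM). Of the early list Dppa3 stood at 1057 and 1222 CPM, Dppa4 at 265.02 and 528, Tfap2c at 259.8 and 161.9, Pou5f1 at 184.1 and 123.99 and Alpl, the alkaline phosphatase of germ cells, at 555 and 308.5. The gate and the batch moved with the stage in part, since 4 of the 9 E10.5 cells and none of the E11.5 cells were from the HE gate and all 9 were from GL78. Within GFI1+ IAHC of GL78, where both stages had 5 cells, Dazl stood at 16.5 CPM at E10.5 (highest cell 92.1) and 709 CPM at E11.5 (lowest cell 275.05), so the groups did not overlap there either. Ddx4 stood at 13.3 CPM (highest cell 31.9) and 140.6 CPM (lowest cell 42.2) and also did not overlap, whereas Mael, at 0 and 44.7 CPM, rested on 3 of the 5 E11.5 cells. In the same cells Dppa3 was at 1157 and 959 CPM, Rhox9 at 1065 and 890 and Tfap2c at 260 and 76.1. Dppa4, at 148.4 CPM (highest cell 291.5) and 619 CPM (lowest cell 344.2), was the 1 early gene past 4-fold there and did not overlap, and of 11 late genes 8 were higher, beside 14.5% of 9486 genes higher and 7.73% lower in this smaller comparison. The stages were on different plates, so plate and stage cannot be told apart. Of the 14 genes of the late germ cell list 11 were measured in the cluster as a whole, and all 11 were higher, beside 7.2% of all genes. The list summed to 9.13 CPM in clusters 0 to 5, so its members reached 10 CPM only through cluster 8. That count is therefore a description and no support.

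**Figure D4:**
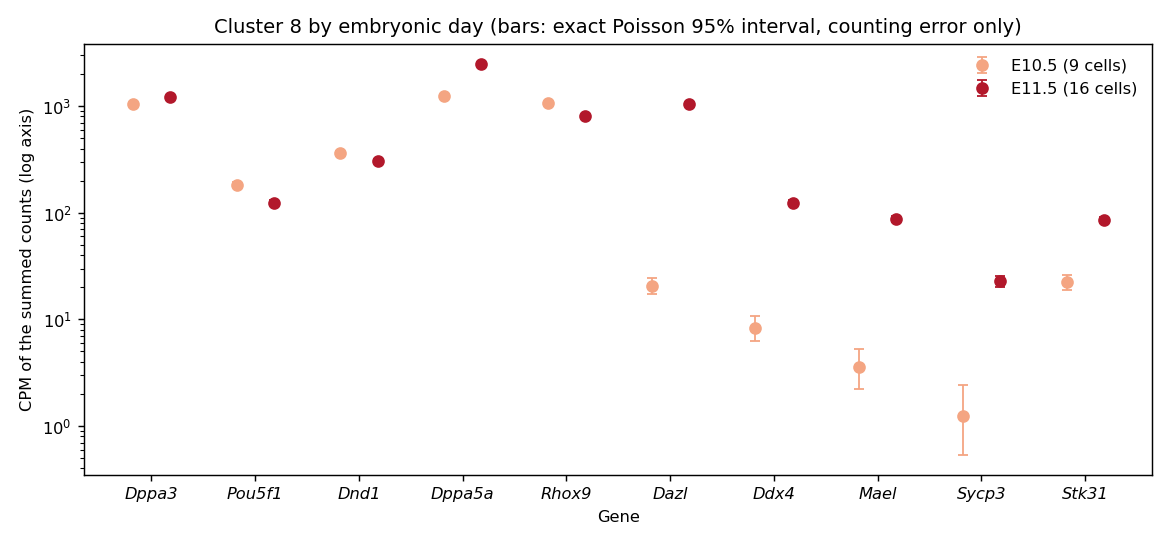
Level of 10 germ cell genes (CPM of the summed counts, log axis, bars showing exact Poisson 95% intervals for counting error) in the 9 E10.5 and the 16 E11.5 cells of cluster 8. Dazl, Ddx4 and Mael differ by more than 10-fold between stages, whereas Dppa3, Rhox9 and Pou5f1 lie close together.

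Of the sort genes cluster 8 carried Kit and Pecam1 RNA but no Gfi1. Kit stood at 210 against 148.1 CPM (counts in 23 cells), and Pecam1, at 213.4 against 950 CPM with counts in 23 cells, was past 4-fold lower. Of the list of genes encoding the sorted and indexed proteins 7 of 8 measured genes were lower and none higher. Of the pan-endothelial list 17 of 17 genes were lower, and Kdr, Cdh5 and Tie1 had no count at all. In the sort record CD31 signal was 13182, 33982 and 59053 in the lowest, median and highest of 23 cells (median percentile 33.3), cKIT signal was 31.2, 539 and 3959, and GFI1 signal was 225.4, 435 and 713. The gates were drawn on cKIT, so a difference in its signal between them was set by the sort. The signal ran from 31.2 to 441.7 in the 4 cells of the cKIT- HE gate. It ran from 303.2 to 933.2 in 5 E10.5 GFI1+ IAHC cells and from 382.3 to 3959 in 13 E11.5 GFI1+ IAHC cells, so the ranges overlapped. CD45 signal was low, with a median of 241.6 and 16 of 23 cells at or below the 10th percentile of their gate, and Ptprc had no count. NOTCH1 signal was low within the gates too (median percentile 15.8), beside 19.9 against 166.6 CPM of Notch1.

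Genes of other kinds also differed in cluster 8. Epcam, an adhesion molecule of epithelia and germ cells, stood at 303.4 against 1.65 CPM, Pdpn at 136.5 against 0.782 CPM, and Pdgfa at 212.3 against 13.9 CPM. Uhrf1, which carries maintenance DNA methylation, stood at 15.4 against 234.3 CPM, beside its partner Dnmt1 at 383.2 against 223.7 CPM, which did not reach 4-fold. Dnmt3b, a de novo DNA methyltransferase, was at 0.821 against 127.7 CPM and Tet1, a methylcytosine oxidase, at 209.4 against 31.3 CPM; both were chosen after their values were seen, as was the imprinted RNA H19 (158.6 against 2371 CPM). Xist, the RNA of the inactive X, had no count in any of the 10 cells without Y-linked counts, whereas in clusters 0 to 5 it reached 10 CPM in 340 such cells and stayed below it in 27, with a median of 170 CPM. Of the immediate early list 10 of 14 genes were lower, Jun (33.998 against 610 CPM) and Fos (121.7 against 644 CPM) among them. Of the 15 genes of the S phase list 1, Uhrf1, was past 4-fold; 12 of the 25 cells (48%) had an S phase call in the annotation, against 60 of 661 (9.08%).

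Cells of cluster 9 were megakaryocyte-like. Pf4 stood at 16230 CPM against 21.3 in clusters 0 to 5 (729-fold), and its lowest, median and highest cells held 1702, 13261 and 52445 CPM. Thbs1, encoding the platelet granule protein thrombospondin 1, stood at 17460 against 6.67 CPM (2277-fold, 4275 CPM or more in all 12 cells). Itga2b, which encodes CD41, was at 6542 against 22.4 CPM (280-fold), and Tubb1, the platelet tubulin, at 4334 against 2.703 CPM.

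Of 10110 genes measured 740 were higher in cluster 9 (7.32%) and 1958 lower (19.4%), so 27.4% of the called genes were higher. The median of all genes was −0.62 on the log2 scale; scaling by the median of ratios moved it by 0.57 to −0.05 and gave 1142 higher and 1504 lower genes, or 43.2% higher. The megakaryocyte list had a median log2 ratio of 8.01 before that shift, with 20 of 21 measured genes higher and none lower. The summed list ran from 18390 to 170896 CPM in the 12 cells (median 75062), and no other kept cell passed 16923. This list took 64.3% of its counts over all kept cells from a cluster with 1.71% of all counts.

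Platelet receptor genes were high in nearly every cell. Gp9 (3479 against 7.13 CPM), Gp5 (1881 against 0.670 CPM), Gp1bb (2030 against 5.46 CPM) and Gp1ba (990 against 2.84 CPM), the 4 chains of the von Willebrand factor receptor, had counts in all 12 cells. Itgb3, the partner of Itga2b, stood at 3116 against 26.7 CPM, Gp6, the collagen receptor, at 305.2 against 0.106 CPM, and Clec1b at 1616 against 81.1 CPM (19.7-fold), since Clec1b was also found in 49.9% of the other cells when each was thinned to 50000 counts. Vwf did not reach 4-fold (1079 against 498 CPM). Granule genes of later megakaryocytes were uneven: Ppbp, the precursor of platelet basic protein, had counts in 7 of 12 cells, and Selp (P-selectin) stood at 8.25 CPM. Among factors, Gata1 (1099 against 4.14 CPM), Gfi1b (733 against 5.37 CPM) and Nfe2 (855 against 21.3 CPM) were higher, and Gata2 (190 against 104.9 CPM) and Runx1 (127.5 against 38.6 CPM) did not reach 4-fold.

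Cluster 9 also held some erythroid transcripts, 6 of 7 measured genes of that list being higher and Hba-x, with no count against 18.3 CPM, lower. Epor, the erythropoietin receptor, had counts in all 12 cells (401 against 6.60 CPM). The globin genes were not shared by all cells: Hbb-bt had counts in 7 cells, Hbb-bh1 in 5, Hba-a1 in 4 and Hbb-y in 1. Klf1 (2.52 CPM), the erythroid master factor, Alas2 and Slc4a1 (no counts) were not measurable at 10 CPM. The summed erythroid list ran from 156.8 to 10128 CPM.

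Endothelial genes were low but not uniformly so in cluster 9. Of the pan-endothelial list 13 of 17 genes were lower, with Cldn5, Ramp2 and Erg at no count; Pecam1 (489 against 950 CPM), Esam (923 against 855 CPM), Kdr (277.7 against 852 CPM) and Tie1 (150 against 567 CPM) did not reach 4-fold. Kit stood at 1.11 against 148.1 CPM, and Cd34, Mecom and Ptprc had no count. Cd9, a platelet tetraspanin named after its values were seen, was at 2687 against 163.7 CPM.

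The index record of cluster 9 stood apart in 2 signals. CD41 signal was 21418 in the lowest, 36632 in the median and 53304 in the highest of 11 cells, all above the highest of 615 cells of clusters 0 to 5 (21225). The cKIT signal was below 0 in all 11 (−1508, −804 and −574), and the lowest of the 615 cells had −426, so again no value overlapped. CD31 signal had a median of 4597 (2596 to 14686), at the 1.30th percentile of the gate, and GFI1 signal one of 814 (337.97 to 1367), at the 82.5th percentile, in spite of 0 Gfi1 counts. NOTCH1 signal was at the 1.30th percentile as well, with no count of Notch1, and JAG1 signal at the 81.2nd percentile, with no count of Jag1.

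Cells of cluster 10 were macrophage-like. C1qb stood at 2600 CPM (2553 to 2648) against 2.98 in clusters 0 to 5 (654-fold), with 803, 2316 and 4669 CPM in the lowest, median and highest of its 11 cells. C1qa (833 against 1.06 CPM) and C1qc (1797 against 1.33 CPM), the other chains of C1q, Csf1r, the receptor for macrophage colony-stimulating factor (1425 against 12.9 CPM, 102.4-fold), and Cx3cr1, the fractalkine receptor (1062 against 6.46 CPM), had counts in all 11 cells. Of 10465 genes measured 1087 were higher (10.4%) and 1858 lower (17.8%).

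Of the macrophage list 17 of 19 genes were higher and none lower, with a median log2 ratio of 6.61 against −0.22 over all genes; scaling by the median of ratios moved the latter by 0.18. Laptm5 (449 against 141.2 CPM) was among those that did not reach 4-fold, and Ms4a7 (104.9 CPM) rested on 4 cells, the highest of which had 1158 CPM. The list summed to 11277 to 27452 CPM over the 11 cells (median 13339), and 1 of 764 other kept cells reached that range, as did 21 of the 85 cells discarded at the quality limits. Adgre1 (F4/80; 324.03 against 2.84 CPM), Mrc1 (CD206; 995 against 9.52 CPM) and Trem2 (618 against 1.66 CPM), surface receptors of tissue macrophages, were among the members. Timd4, Ccr2 and H2-Aa, genes of some resident macrophages, of monocytes and of antigen presentation, had no count, and H2-Eb1 (24.1 CPM) came from 1 cell.

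Genes of uptake and digestion were high in cluster 10. Of that list 8 of 12 measured genes were higher, among them the lysosomal proteases Ctsb (4578 against 364.7 CPM), Ctsd (2360 against 351.1 CPM) and Lgmn (1974 against 59.5 CPM) and the scavenger receptor Stab1 (1873 against 347.4 CPM). Mertk and Axl, receptors for dying cells, stood at 135.8 against 4.53 and 89.6 against 5.12 CPM. Apoe, the lipid carrier, named after its values were seen, was at 9075 against 451 CPM. Of the 15 immediate early genes 3 were higher, beside 10.4% of all genes, and none lower. They were Atf3 (1277 against 123.8 CPM, counts in 8 cells), Zfp36 (1040 against 115.1 CPM, counts in 11) and Egr2 (88.9 against 4.15 CPM, counts in 3), and Fos (2349 against 644 CPM) did not reach 4-fold. The batch moved with these: in the 3 GL53 and the 8 GL78 cells Fos stood at 835 and 3159 CPM, Atf3 at 606 and 1636, and Zfp36 at 469 and 1346.

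Of the hematopoietic progenitor list 4 genes were higher in cluster 10, Ptprc (452 against 30.02 CPM, 14.6-fold), Spi1, encoding the myeloid factor PU.1 (394 against 44.1 CPM), Runx1 (205.4 against 38.6 CPM, 5.22-fold) and Coro1a (796 against 163.5 CPM), and 8 of 15 were lower. Kit stood at 3.603 CPM with counts in 1 cell, Pecam1 at 58.8 against 950 CPM with counts in 5 cells, and 17 of 17 pan-endothelial genes were lower. Pf4 was at 258.95 CPM with counts in 7 of 11 cells (highest 883), below every cell of cluster 9, while Itga2b, Gp9 and Gp1ba had no count.

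CD45 signal of cluster 10 was 5995, 14331 and 25457 in its lowest, median and highest cells, against a median of 666 in clusters 0 to 5, and lay at the 86.8th percentile of the same gate and batch. CD31 signal was near the bottom of the gate (1457.6, 2273 and 4735, with 8 of 11 cells at or below the 10th percentile) and GFI1 signal too (−114, 36.2 and 103.3). The 2 cells from the GFI1+ IAHC gate had GFI1 signals of 42.8 and 36.2, inside the range of the 9 from the GFI1- gate and below the 119.4 of the lowest cell of clusters 0 to 5 in E11.5 GFI1+ IAHC. CD41 signal was above most cells of the gate (median 1478, 93.9th percentile) with no count of Itga2b, and JAG1 signal lay at the 90.2nd percentile with Jag1 at 3.603 CPM. Against all cells of clusters 0 to 5, the CD41 median was above theirs (535), whereas the JAG1 median of 7720 was below theirs (8945). Signal and transcript thus differed in direction for CD41. For JAG1 the signal was high only within the gate, and the transcript was compared with all of clusters 0 to 5.

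**Figure D5:**
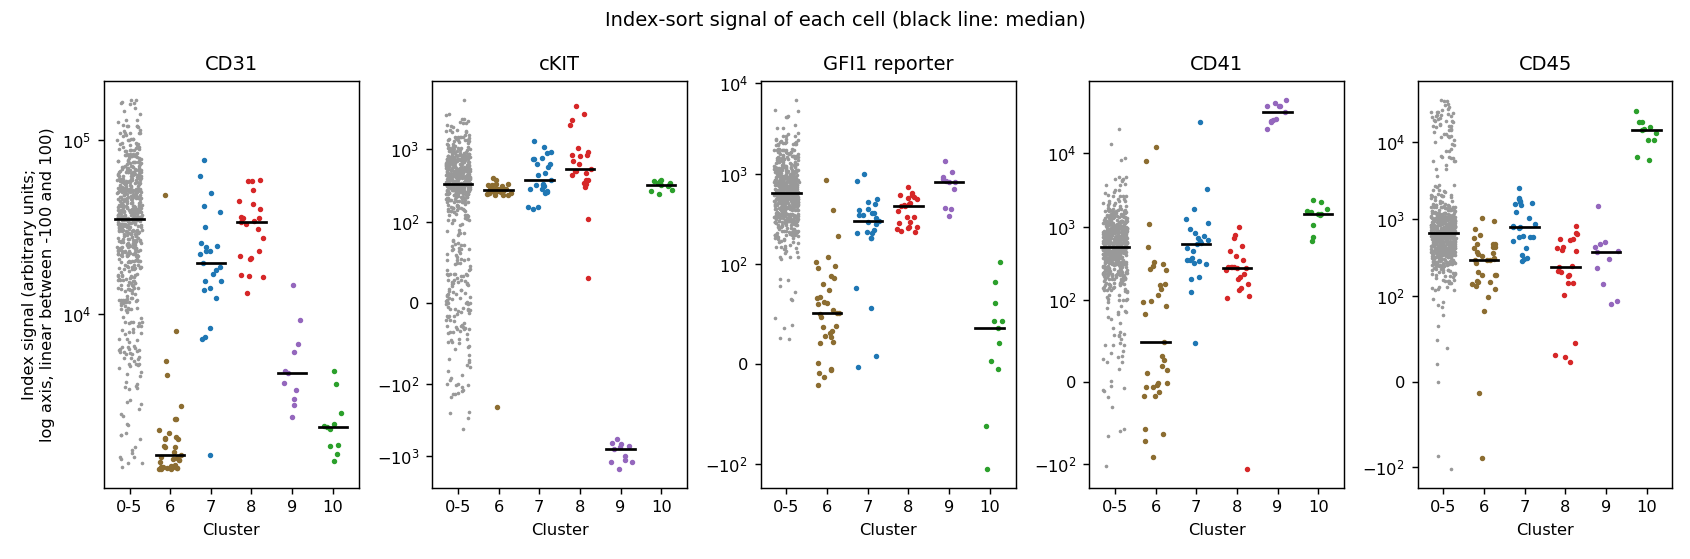
Index-sort signals of CD31, cKIT, GFI1, CD41 and CD45 (arbitrary units, log axes that turn linear near 0) in clusters 0 to 5 and in clusters 6 to 10, with 1 point per cell and a black line at the median. Cluster 9 stands alone in CD41 (above 21225) and in negative cKIT, cluster 10 is high in CD45, and cluster 8 is within the range of clusters 0 to 5 in CD31.

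Genes lower in all 5 clusters numbered 70, among them the endothelial genes Aplnr, Cd34, Emcn and Flt1 and the granulocyte and mast cell genes Mpo and Cpa3. No gene was higher in all 5, although cluster 7 had few higher genes to share. Over all genes 5.48% were lower in cluster 6, 4.72% in cluster 7, 16.1% in cluster 8, 19.4% in cluster 9 and 17.8% in cluster 10. All 5 were compared with the same 661 cells, so shared calls are not independent. The genes higher in both cluster 6 and cluster 8 were 15.6% of those of cluster 6 and 19.8% of those of cluster 8, those higher in both cluster 9 and cluster 10 were 13.8% and 9.38%, and the 30 shared by clusters 6 and 7 were 28.04% of those of cluster 7 and 3.14% of those of cluster 6. Over all genes 8.72% were higher in cluster 6, 1.09% in cluster 7, 7.2% in cluster 8, 7.32% in cluster 9 and 10.4% in cluster 10. The number of genes found in 50000 counts drawn from each cell had a median of 6299 in cluster 6, 5796 in cluster 7, 5827 in cluster 8, 4410 in cluster 9 and 4312 in cluster 10, against 5626 in clusters 0 to 5.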

How the data were processed

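Single AGM cells were index-sorted and sequenced by Smart-Seq2. The authors mapped reads to mm10 with STAR 2.7.3 and counted them per gene (GENCODE M21) with HTSeq 0.9.1, and the deposited table holds raw counts of 46078 genes. The 92 spike-in rows held no counts. The annotation gives the mitochondrial share of counts as a fraction, as the authors computed it, and index-sort intensities in arbitrary units as deposited, with no stated transformation. Cells under 2500 genes or 50000 counts, or over 5% mitochondrial counts, had been discarded; these limits, applied to the counts, picked out all 85 cells without a cluster label and no other. Clusters came from Scanpy 1.4.4 after the authors regressed out depth, mitochondrial share and cell cycle, without batch correction, and phases from Cyclone. The deposited table of log-normalized values and the pseudotime column were not used. No doublet caller was run.

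Counts were summed over the cells of a cluster and scaled to CPM. A gene was measured at 10 CPM or more in the higher group and called at 4-fold after adding 1 CPM. Named genes were the 12 highest at 50 CPM or more with counts in 75% or more of cells, and the 6 lowest, besides the cluster's own list and the sort genes; predicted genes were passed over, and genes added after their values were seen are marked in the text. Index percentiles were taken among cells of clusters 0 to 5 of the same gate, stage and batch where at least 5 had values; 9 members had no index values. The members and the gene lists were chosen with earlier results of these data known. No animal is named, so no test was made. Analyses used Python 3.11.15, numpy 2.4.6, pandas 2.3.3, scipy 1.17.1 and matplotlib 3.10.9 and were tested on simulated data. Alternatives changed the pseudocount, minimum level, scaling, comparator, cell weights, depth and the batches, groups or repeated libraries included.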

Additional observations from a re-analysis of the deposited data

Results flagged for a closer look

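The 85 cells without a cluster label, which no comparison above used, also carried genes of the 5 lineages. All 85 were past a quality limit, 76 of them with more than 5% mitochondrial counts, and 46 were from E11.5 GFI1- IAHC. C1qb was at 100 CPM or more in 41 of them and Pf4 in 25.

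The summed macrophage list reached the lowest cell of cluster 10 in 21 of the 85, beside the 11 cells of the cluster itself. Of the 21 cells, 18 were from E11.5 GFI1- IAHC, and each was past the mitochondrial limit alone, with 5.03% to 13.2% mitochondrial counts and total counts of 138923 to 413764. C1qb ran from 892 to 3526 CPM in them (median 1867), inside the 803 to 4669 CPM of cluster 10, and C1qc, Csf1r, Cx3cr1, Mrc1 and Ptprc had counts in every cell. Kit had no count in any of the 21, and Cdh5 had counts in 1. The mitochondrial share thus moved with whether a macrophage-like cell was kept, and its part in the share of cluster 10 was not tested.

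The lymphatic endothelial list reached the lowest cell of cluster 7 in 29 of the 85, 21 of them from E11.5 GFI1- IAHC, and the mesenchyme list reached the lowest cell of cluster 6 in 12; both limits were also reached by many kept cells of other clusters. The early germ cell list did so for cluster 8 in 3, and the megakaryocyte list for cluster 9 in 1, a library with 45 counts in all.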

How the results depend on the processing

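No list median changed direction under the alternatives run, and 36 of the recomputed values moved; the cause of a move was not tested unless its construction gives it. Values of genes called are percents of the genes measured. With a pseudocount of 10 CPM, which shrinks low genes by construction, the list medians on the log2 scale were 3.55 in cluster 6, 4.40 in cluster 8, 6.59 in cluster 9 and 5.19 in cluster 10, and the genes higher and lower were 2.91% and 2.62% in cluster 6, 0.335% and 1.36% in cluster 7, 2.54% and 7.69% in cluster 8, 4.45% and 7.19% in cluster 9, and 4.82% and 6.94% in cluster 10. With 0.1 CPM the median of cluster 8 was 9.84. Without a minimum level many more genes were measured, and the higher genes were 4.96% in cluster 6, 0.606% in cluster 7 and 3.91% in cluster 8, and the lower genes 3.15% in cluster 7 and 10.05% in cluster 10. Scaling by the median of ratios gave 10.95% higher in cluster 9.

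Without GL53, 13.9% of genes were lower in cluster 6 (4 cells) and 2.04% higher in cluster 7. The E11.5 GFI1+ IAHC cells of cluster 7 alone gave 1.69% higher, and the E11.5 GFI1- IAHC cells 7.65% lower. The macrophage list median of cluster 10 was 4.84 against cells of the same stage, gate and batch and 6.07 in cells thinned to 50000 counts. The share of E11.5 GFI1- IAHC in clusters 6 to 10 was 25% without GL53 and 32.04% of all sequenced cells, and that of E11.5 HE was 0% without GL78. Among index percentiles, that of cKIT in cluster 6 was 7.69 without GL53 (3 cells), that of GFI1 in cluster 10 was 12.2 without GL78 (3 cells), and that of CD31 in cluster 9 was 4.72 against all cells of clusters 0 to 5. No paired analysis was possible because the replicate numbers only count cells within a group and no test was made. Few cells per cluster and unnamed animals limit all values.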
